A study of Mus musculus with 77 samples.

Results

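MAP kinase cascade genes were taken from a deposited table of 44002 mouse enhancers, each assigned to a gene, by their symbols: every gene starting with Mapk, Map2k, Map3k or Map4k was a member, whatever its values. There were 42 such genes of 10096 in the table, with 246 enhancers on 17 chromosomes, and a member had a median of 2 enhancers, as did all genes. By role they were 4 MAP4K, 11 MAP3K, 7 MAP2K, 11 MAPK, 3 kinases activated by MAPK and 6 partner genes that carry the name of the cascade. Members of the cascade that the table does not list, among them Mapk8, were not analysed here.

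The study followed the granulocytic and monocytic branch of blood formation in bone marrow cells sorted fresh from mice. The wild type groups used here number 4: LSK, the stem and early progenitor gate (Lin-, Sca-1+, ckit); preGM (Lin-, Sca-1-, ckit+, CD150-, CD105-); GMP, the granulocyte-monocyte progenitors (Lin-, Sca-1-, ckit+, CD150-, FcgRII/III+); and granulocytes (Mac1+Gr-1+). The remaining group was preGM of the same gate with the genotype CEBPA KO; the labels do not say how or in which cells Cebpa was deleted, nor how many animals were pooled. CEBPA and PU.1 are transcription factors that bind enhancers of myeloid genes, H3K4me1 marks primed and active enhancers, and H3K27ac marks active ones. Antibody pulldown with sequencing (ChIP-seq) gave H3K27ac and H3K4me1 in all 5 groups, PU.1 in all but granulocytes, and CEBPA in wild type preGM.

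In a MAP kinase cascade, kinases activate one another in series: a MAP4K can start it, a MAP3K phosphorylates a MAP2K, and the MAP2K switches on a MAPK. The ERK branch is known for carrying growth factor signals, and the p38 and JNK branches for stress and microbial signals. In neutrophils the p38 branch is known for its part in migration, cytokine production and granule release.

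Each ChIP group is 1 deposited column that stands for 2 listed libraries, so no value here has a replicate error, no difference has a replicate check, and no test was made. A gene's ChIP value is the mean over its enhancers in the authors' signal units. A ratio is the log2 of the group named first over the group named second after a pseudocount was added to both, and a gene is called 2-fold higher or lower where that ratio reaches 1 or -1. The median gene of the table was itself off 0 in several comparisons, so a second ratio relative to the median of all genes is given where it matters. Expression values come in 2 sets that share no scale: LSK, preGM, GMP and granulocytes in one, and wild type and KO preGM in the other. The wild type preGM columns of both sets had a Pearson r of 0.78 across genes on the log2 scale, against 0.985 for wild type and KO preGM within the second set and 0.973 for LSK and preGM within the first, so both sets cannot hold the same libraries on 1 scale, and values were compared within a set only. No expression value was 0, the lowest being 2.04, and the unit is not stated. Across genes this r is a description, since genes are not independent replicates. In such bulk samples, fewer cells of a type and less RNA per cell cannot be told apart.

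Marker genes followed the gates, least clearly between LSK and preGM. Summed H3K27ac over the 6 LSK markers was 9.91 in LSK, 9.09 in preGM, 7.06 in GMP and 3.48 in granulocytes. These markers thus set LSK apart from preGM only slightly. Over the 4 granulocyte-monocyte progenitor markers the sum was 34.3 in GMP and at most 6.89 elsewhere. Over the 10 granulocyte markers it was 24.8 in granulocytes and at most 6.44 elsewhere. In KO preGM, expression of Cebpa was 48.3 against 208 in wild type preGM. As no expression value was 0 and 48.3 lies under the pseudocount of 60, whether any Cebpa RNA remained cannot be told. The position of the deletion within the gene is not stated, so how much of its RNA should remain is unknown. H3K27ac over the 16 Cebpa enhancers was 3.26 in KO and 2.31 in wild type preGM.

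In H3K27ac, the members differed 2-fold about as often as other genes of the table did. Between LSK and preGM none of the 42 differed 2-fold in H3K27ac, and the background was 0.456% of all genes higher and 0.188% lower. In GMP against preGM, 4 of 42 were at least 2-fold higher (Map2k7, Mapk1ip1l, Mapkbp1 and Mapkapk2) and none lower, against 9.05% and 0.178% of all genes. H3K27ac of the median gene was itself higher by 0.42 (log2) in GMP, and relative to it no member was 2-fold higher and Map2k1 was 2-fold lower, against 1.07% and 1.69% of all genes. In granulocytes against GMP, 4 members were higher (Map2k4, Mapk7, Map2k7 and Map2k1) and 1 was lower (Map3k4), against 7.81% and 7.57% of all genes.

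In expression, most of the 2-fold calls came in the step from GMP to granulocytes. Against LSK, 1 of 42 members was 2-fold higher in preGM (Mapkapk3) and none lower, with 1.31% and 0.703% of all genes. Against preGM, 1 was lower in GMP (Map4k1) and none higher, with 2.5% and 2.38% of all genes. In granulocytes against GMP, 11 were higher and 6 lower, with 10.6% and 17.5% of all genes. With 4 times the pseudocount, 2 were higher and 3 lower, with 6.35% and 10.2% of all genes. Relative to the median gene, 12 were higher and 5 lower, with 11.1% and 16.5% of all genes, and the median member lay 0.25 (log2) above the median gene. Expression was highest in granulocytes in 21 of 42 members (50%), against 29.8% of all genes, and H3K27ac in 24 of 42 (57.1%), against 43.6%. The marker lists moved with this step too: expression summed over granulocyte markers was 4668 in GMP and 58494 in granulocytes, over progenitor markers 38358 and 3318, over monocyte and macrophage markers 11344 and 2365, and over the 2 erythroid markers it lists 79.6 and 289. Their part in the members' values was not tested.

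**Figure D1:**
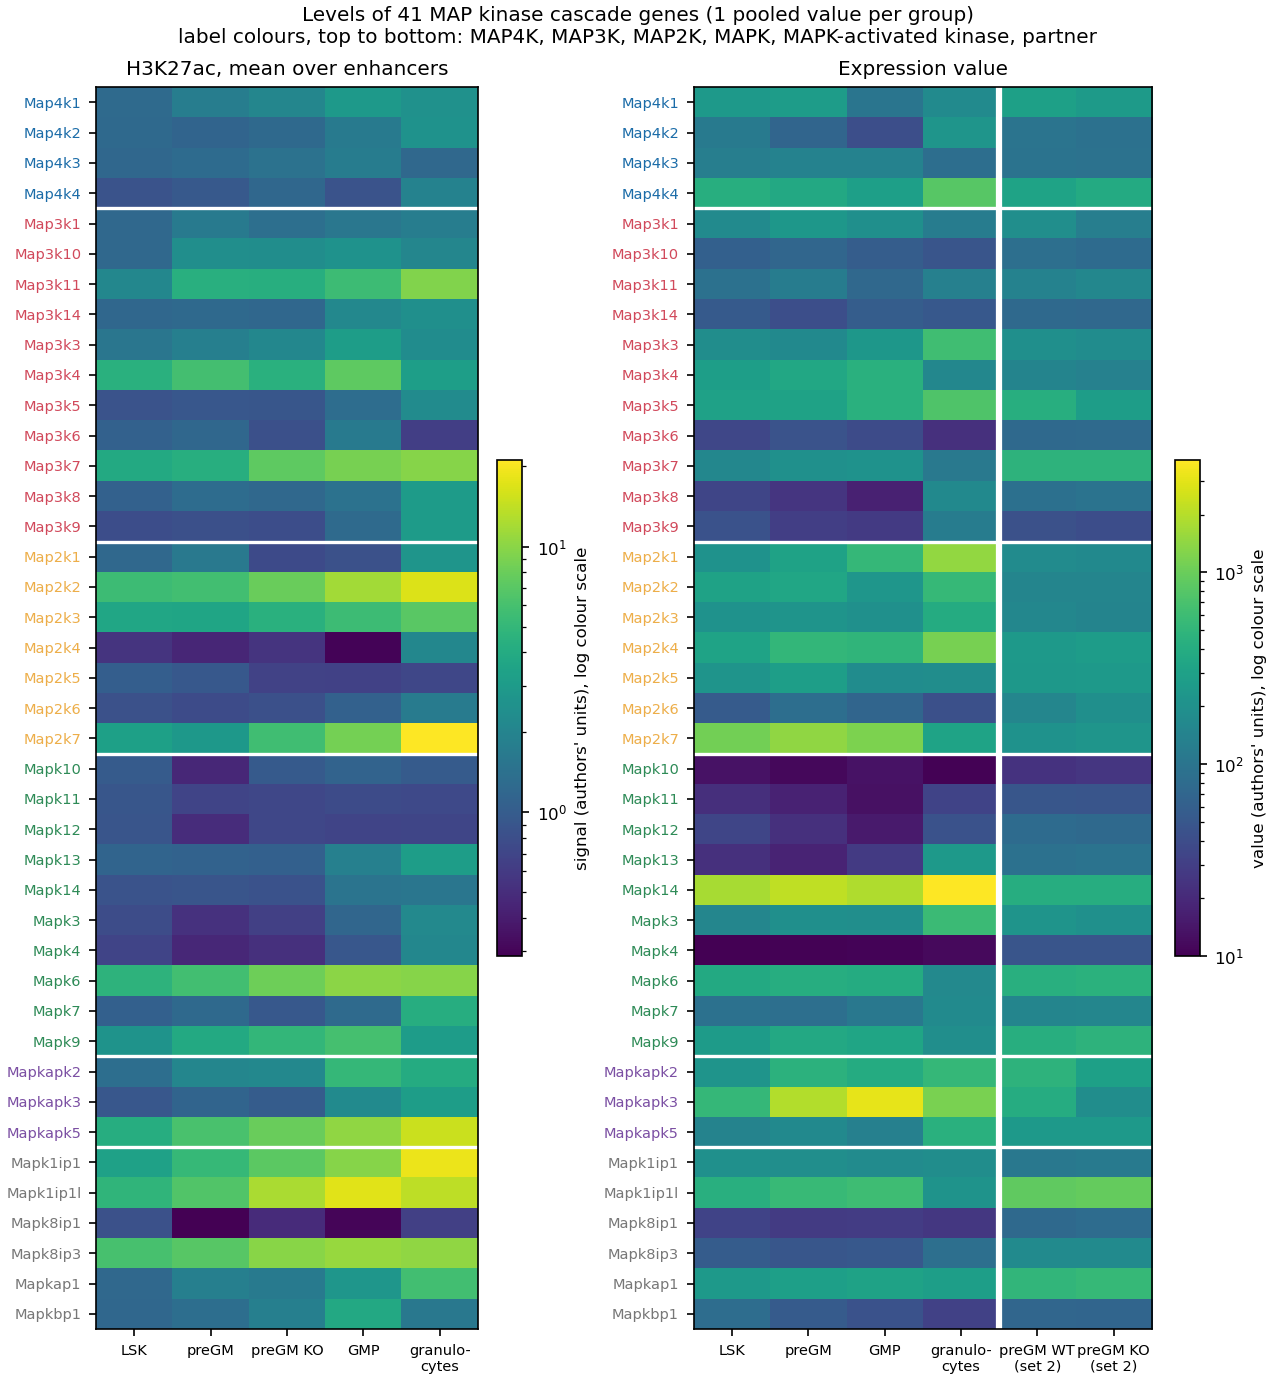
Heat map of 41 members (rows, grouped by role) by group (columns): mean H3K27ac signal over a gene's enhancers at left and expression at right, in the authors' units on log colour scales, 1 pooled value per cell, with the second expression set to the right of the white bar. Mapkapk3 runs from 528 in LSK to 3079 in GMP, and Map2k7 has its highest H3K27ac (21.2) but its lowest expression of the 4 stages (318) in granulocytes.

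Among the MAP4K, the kinases at the top of the cascade, Map4k1, which acts mainly in blood cells, had expression of 242 in LSK, 266 in preGM, 102 in GMP and 173 in granulocytes. GMP were thus the low point, at a log2 ratio to preGM of -1.01. H3K27ac at its 3 enhancers was 1.26 in LSK, 1.77 in preGM, 2.87 in GMP and 2.52 in granulocytes, so acetylation was not lowest in GMP. Map4k2 expression was 116, 68.9 and 41.8 in LSK, preGM and GMP and 220.4 in granulocytes, and Map4k4 expression was 421, 367, 286 and 815 in the same order. Both were lowest in GMP and higher in granulocytes than in any progenitor group, with log2 ratios to GMP of 1.46 and 1.34. At Map4k4, 7 of its 16 enhancers had at least 2-fold more H3K27ac in granulocytes than in GMP and none had less, where 14.1% of all enhancers had more. Map4k3 was lower in granulocytes, at 84.9 against 139 in GMP, short of 2-fold.

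The MAP3K, which receive most of the upstream signals, split in granulocytes. Map3k8 (TPL2), which links Toll-like receptors to ERK, had expression of 34.7, 25.2, 17.4 and 169 in LSK, preGM, GMP and granulocytes, and H3K27ac over its 10 enhancers was 1.09, 1.32, 1.45 and 3.04. Granulocytes were high in both measures, and the progenitors were low. Map3k9 (MLK1) had expression of 44.9, 29.8, 27.2 and 121 and H3K27ac of 0.797, 0.825, 1.26 and 3.06 in the same order. The authors flagged 17 of its 18 enhancers as present in granulocytes, against 42.5% of all enhancers. H3K27ac was at least 2-fold higher there than in GMP at 8 of the 18 and H3K4me1 at 11, where 9.69% of all enhancers were higher in H3K4me1. Its enhancer 17, at chr12:82880938-82881287 (mm9), had the highest H3K27ac ratio of any member enhancer in this step, with 5.33 in granulocytes and 0.640 in GMP.

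Map3k3 (MEKK3) had expression of 626 in granulocytes and 235 in GMP, while its H3K27ac was 2.34 and 3.15, so that the measures lay on opposite sides. Map3k5 (ASK1), a sensor of oxidative stress, had expression of 299, 307, 433 and 742 in LSK, preGM, GMP and granulocytes, and H3K27ac of 0.863, 0.925, 1.33 and 2.30. Each stage was at or above the one before it in both measures. Its enhancer 6, at chr10:19659094-19659232, carried a PU.1 signal of 71.0 in preGM, 48.5 in LSK and 47.1 in GMP.

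Map3k4 (MEKK4), which GADD45 proteins are known to activate, was the member with the lowest H3K27ac ratio in granulocytes: its 1 enhancer had 4.37, 5.89, 7.27 and 3.21 in LSK, preGM, GMP and granulocytes. Expression followed, with 281, 354, 433 and 156. H3K4me1 at the same enhancer was the opposite, at 10.5 in granulocytes against 3.41 in GMP. It was 1 of 2 members at least 2-fold higher in that mark, the other being Mapk8ip3 with 11.8 against 4.39, and 5.32% of all genes were; none of the 42 was lower, against 2.09%. Relative to the median gene, which was itself higher by 0.34, no member was higher, against 0.872% of all genes, and 1 was lower, Map2k5 with 0.698 in granulocytes and 2.67 in GMP (-1.13), against 8.05%. In H3K4me1 no member differed 2-fold between preGM and LSK, where 0.0099% of all genes were higher and 0.0099% lower, or between GMP and preGM, where 0.238% were higher and 0.0099% lower. Map3k6 (ASK2) was low in granulocytes in both H3K27ac, at 0.636 against 1.65 in GMP, and expression, at 22.6 against 38.5. Both expression values of Map3k6 were under the pseudocount of 60, so their difference says little. None of its 9 enhancers was flagged for granulocytes, and its enhancer 5, at chr4:132797328-132797678, had the lowest H3K27ac ratio of all member enhancers, 0.932 against 6.93 in GMP.

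Of the other MAP3K, Map3k1 (MEKK1) had expression of 174, 236, 196 and 121 in LSK, preGM, GMP and granulocytes, and H3K27ac between 1.23 and 1.78. Map3k7 (TAK1), which passes cytokine and Toll-like receptor signals to p38, JNK and NF-kB, had H3K27ac of 3.92, 4.29, 8.75 and 9.63 but expression of 157, 199, 207 and 111. Acetylation and expression parted in the last step, where expression was at its low point. Map3k14 (NIK), the kinase of the noncanonical NF-kB pathway, had expression from 41.3 in preGM to 57.8 in GMP, all under the pseudocount of 60. Map3k11 and Map3k10, of the mixed lineage kinases, had the largest H3K27ac ratios of preGM to LSK among the members, at 4.30 against 2.11 and 2.41 against 1.23, both under 2-fold on the scale with the pseudocount.

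Among the MAP2K, which phosphorylate the MAPK, Map2k1 and Map2k2, the MEK kinases of the ERK branch, were both higher in granulocytes. Map2k1 expression was 207, 306, 529 and 1477 in LSK, preGM, GMP and granulocytes, higher at every step. Its single assigned enhancer, at chr9:64097688-64097963, had H3K27ac of 1.23, 1.64, 0.832 and 2.70 in the same order, lowest in GMP, so that acetylation and expression parted only from preGM to GMP. Yet the authors flagged this enhancer for GMP alone, so the flag and the signal differ, and the low GMP value has no replicate check. Map2k2 expression was 309, 336, 230.1 and 537, and its H3K27ac was 5.52, 5.81, 11.7 and 16.9.

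Map2k4, which activates both JNK and p38, had expression of 317, 516, 492 and 1144. Its H3K27ac was 0.552, 0.456, 0.300 and 2.11, the highest log2 ratio of granulocytes to GMP among the 42 (1.49, or 1.48 relative to the median gene). The GMP value was the lowest of any member and under the pseudocount of 0.7. With 4 times the pseudocount the ratio was 0.66, below that of Map2k7 (1.07), so this rank depends on the pseudocount. Like 21.2% of all enhancers, both enhancers of Map2k4 were flagged for granulocytes alone, and so listed through the stage where they are high. Of these, the one at chr11:65607605-65607802 was classed as bound by PU.1 and CEBPA and already carried PU.1 in LSK (3.08), preGM (5.24) and GMP (5.59), while its H3K27ac stayed between 0.383 and 0.572 until granulocytes (2.26). Map2k3, of the p38 branch, had expression of 393 in granulocytes against 197 in GMP, and Map2k6, of the same branch, 42.9 against 69.7.

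Map2k7, which acts on JNK, was the member where the measures parted most. H3K27ac at its 1 enhancer, at chr8:4238624-4239181, was 3.30, 2.84, 8.60 and 21.2 in LSK, preGM, GMP and granulocytes, whereas expression was 1083, 1422, 1197 and 318. Granulocytes were highest in acetylation and lowest in expression. Their log2 ratios to GMP were 1.23 and -1.74. Of the 42 members, 30 had the same sign in H3K27ac and expression in this step, relative to the median gene (71.4%, against 64% of all genes), and Map2k7 was the only one with opposite signs both past 0.5.

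**Figure D2:**
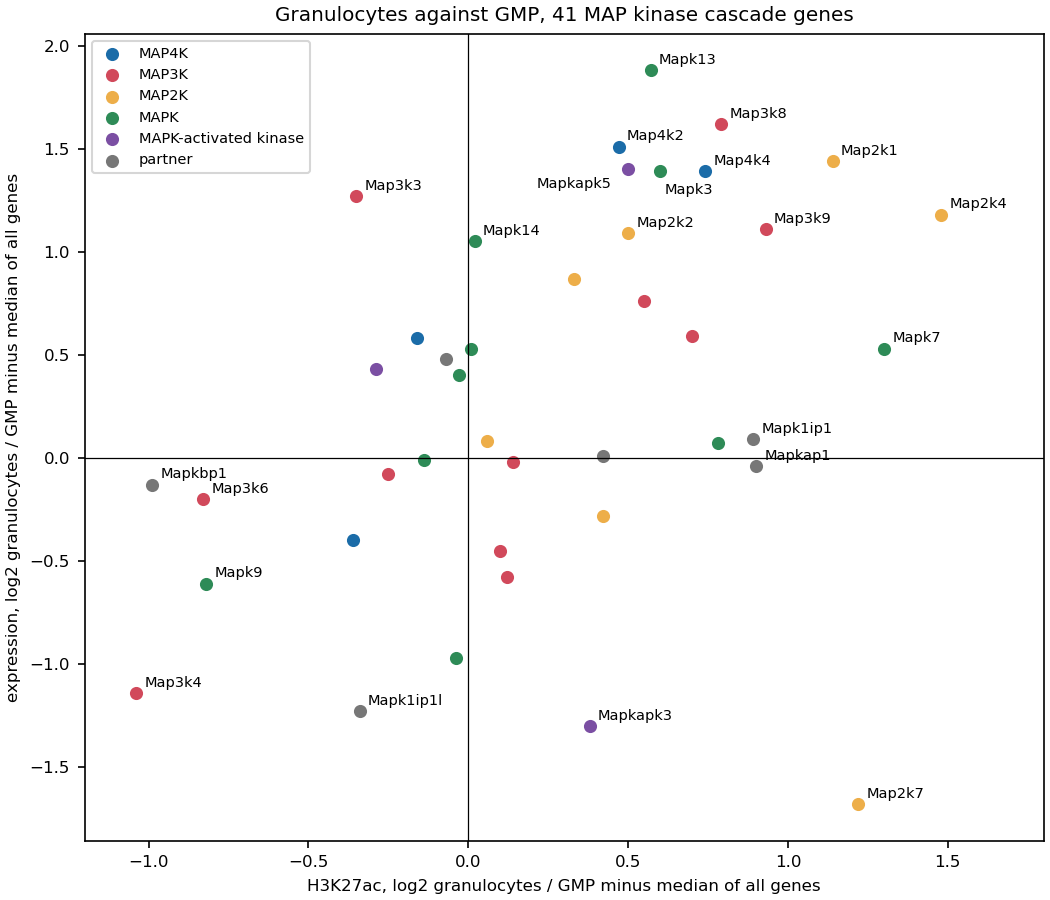
Each point is 1 of 41 members: log2 ratio of granulocytes to GMP in H3K27ac (x axis) and expression (y axis), both minus the median of all genes, coloured by role. Map2k4, Map2k1 and Map3k8 lie at upper right, Map3k4 at lower left, and Map2k7 alone far at lower right (1.22, -1.68).

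Among the MAPK themselves, Mapk3 (ERK1), which MEK kinases switch on, was higher in granulocytes. Its expression was 153, 193, 191 and 576 in LSK, preGM, GMP and granulocytes, and its H3K27ac over 10 enhancers was 0.779, 0.526, 1.19 and 2.18. Granulocytes were the high point in both measures, with a log2 expression ratio to GMP of 1.34.

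Expression of the p38 genes was higher in granulocytes than in GMP at all 4, though not by 2-fold at each. Mapk14 (p38 alpha) expression was 1763, 2206, 1908 and 3863, short of 2-fold over GMP with the pseudocount but past it relative to the median gene, while H3K27ac over its 19 enhancers was 1.50 in GMP and 1.56 in granulocytes. Mapk13 (p38 delta), the next protein-coding gene on chromosome 17, had expression of 22.5, 18.1, 27.3 and 249, the highest ratio of granulocytes to GMP among the 42 (log2 1.82). Its progenitor values were under the pseudocount of 60. With 4 times the pseudocount the ratio was 0.87, below that of Map2k1 (1.16), so this rank depends on the pseudocount. H3K27ac over the 9 Mapk13 enhancers was 1.15, 1.11, 1.88 and 3.16. Neighbouring genes can share enhancers, and which of the pair an enhancer acts on was not measured. Mapk11 and Mapk12, neighbours on chromosome 15, had low expression values over the 4 stages, 13 to 32.8 and 15.4 to 44.7, under the pseudocount of 60. In the second set, Mapk11 had 48.6 in wild type and 47.8 in KO preGM, and Mapk12 had 79.6 and 76.3.

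Mapk7 (ERK5) had H3K27ac of 1.07, 1.25, 1.26 and 4.17 in LSK, preGM, GMP and granulocytes, with expression of 91.9, 87.1, 109 and 174. Only its enhancer at chr11:61307688-61308300 carried this, at 7.48 in granulocytes against 2.05 in GMP; the other, at chr11:61312610-61312879, had 0.856 and 0.470 but the stronger PU.1 signal, 24.1, 32.0 and 19.0 in LSK, preGM and GMP. Without the first enhancer the H3K27ac log2 ratio of Mapk7 was 0.41 in place of 1.31. Mapk9 (JNK2) was lower in granulocytes, with H3K27ac of 3.08 against 5.93 and expression of 189 against 333. Mapk6 (ERK3) expression was 163 against 392. Mapk10 (JNK3), known mainly from brain, and Mapk4 (ERK4) had expression of 10.2 to 13.2 and 9.96 to 11.5 over the stages.

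Of the kinases that p38 activates, Mapkapk3 (MK3) stood out. Its expression was 528 in LSK, 1938 in preGM, 3079 in GMP and 1164 in granulocytes. It was the one member 2-fold higher in preGM than in LSK (log2 1.76), and GMP were its high point. H3K27ac over its 16 enhancers was 0.928, 1.14, 2.24 and 3.15 in the same order, so acetylation was highest in granulocytes. Mapkapk2 (MK2), which controls the stability of inflammatory mRNAs, had expression of 219.6, 455, 389 and 525, with H3K27ac of 1.35, 2.07, 5.04 and 4.03 over 25 enhancers. Mapkapk5 had expression of 144, 167, 134 and 433 and H3K27ac of 4.22, 6.18, 10.3 and 15.0.

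Among the partner genes, Mapk1ip1l had H3K27ac of 4.80, 6.61, 17.5 and 13.8 and expression of 432, 557, 600.4 and 212. Mapkbp1, a JNK-binding protein, had H3K27ac of 1.20, 1.35, 3.87 and 1.62, a peak in GMP, while its expression was 83.4, 55.0, 44.4 and 31.6. Mapkap1, a subunit of the mTORC2 complex rather than a cascade kinase, had H3K27ac of 2.73 in GMP and 5.74 in granulocytes with expression of 306 and 283. The JNK scaffold genes Mapk8ip1 and Mapk8ip3 had expression of 25.9 to 33.1 and 48.8 to 88.5.

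In KO against wild type preGM, no member differed 2-fold in H3K27ac, H3K4me1 or expression on the scale with the pseudocount. Before it was added, Map2k7, Map2k1 and Mapk10 in H3K27ac and Mapkapk3 in expression differed about 2-fold or more. Over all genes, 0.178% were higher and 0.119% lower in H3K27ac, 0.0% and 0.0099% in H3K4me1, and 0.218% and 0.347% in expression. The largest H3K27ac ratios were those of Map2k7, at 5.68 in KO and 2.84 in wild type (log2 0.85), Mapk1ip1l, at 12.2 and 6.61 (log2 0.81), and Map2k1, at 0.756 and 1.64 (log2 -0.69). Expression in KO and wild type was 221 and 207 at Map2k7, 942 and 892 at Mapk1ip1l, and 167 and 175 at Map2k1. Expression was lower in KO most of all at Mapkapk3, with 187 against 402 (log2 -0.90), Mapkapk2, with 292 against 470.3 (-0.59), Map3k5, with 276 against 419 (-0.51), and Map3k1, with 128 against 190.1 (-0.41). The other 38 members lay between -0.16 and 0.25. Marker lists moved in this comparison: expression summed over progenitor markers was 4714 in KO and 9107 in wild type, over granulocyte markers 471 and 1735, over monocyte and macrophage markers 380.4 and 1673, and over LSK markers 2356 and 3293. Sums were higher in KO over 3 megakaryocyte markers (481 and 384), 2 erythroid markers (311 and 260.5), and 2 B cell markers (92.2 and 86.5). The 1 T and NK cell marker was higher too (100.3 and 68.7), and the 1 mast cell marker was lower (34.8 and 46.0). The part of these lists in the members' values was not tested.

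PU.1 signal in KO preGM was lower across the table, with a median gene of -0.40 (log2), and 3 of 42 members were at least 2-fold lower and none higher, against 3.39% and 0.0396% of all genes. Map2k5, the kinase of the ERK5 branch, had 6.52 in wild type and 2.01 in KO at its single enhancer, Mapk8ip1 2.70 and 0.804, and Map3k7 5.17 and 2.22. Relative to the median gene, Map2k5 alone was 2-fold lower (-1.05), against 0.386% of all genes. Its enhancer, at chr9:63157056-63157762, was also the member with the highest mean CEBPA signal in wild type preGM, 3.51, in the 99.5th percentile of all genes, followed by Map3k1 (2.18), Map3k8 (1.50) and Mapkapk3 (1.31). The median member had 0.596 and the median gene 0.578. Expression of Map2k5 was 239 in wild type and 251 in KO.

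**Figure D3:**
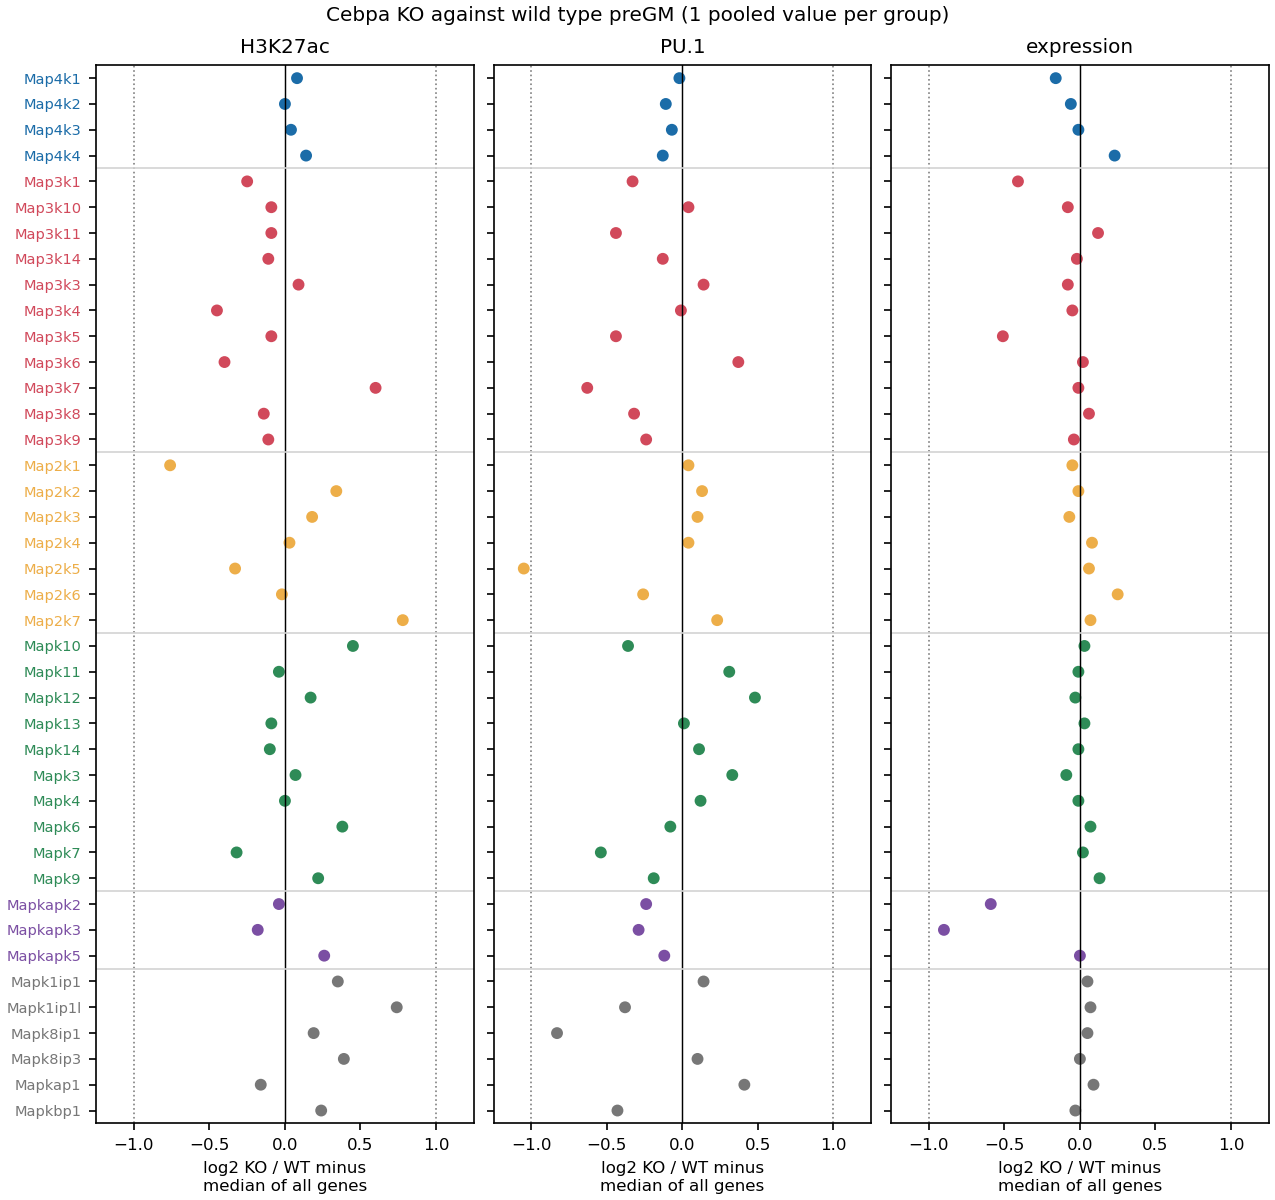
Log2 ratios of KO to wild type preGM for 41 members (rows, coloured by role), minus the median of all genes, in H3K27ac, PU.1 and expression, with dotted lines at 2-fold. Most points in the expression panel sit near 0, while Mapkapk3 (-0.90), Mapkapk2 (-0.59), Map3k5 (-0.51) and Map3k1 (-0.41) lie to the left.

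Of the 246 member enhancers, the authors' classes put 142 as unbound, 45 as bound by PU.1 only, 32 by CEBPA only and 27 by both, shares of 57.7%, 18.3%, 13% and 11% against 59.5%, 19.1%, 12.3% and 9.21% of all enhancers. PU.1 was at least 2-fold lower in KO at 16 of them, and 6.15% of all enhancers were. Of these 16, 9 were among the 27 bound by both factors, a class of which 27.7% were lower over the whole table. The lowest ratio was at Map3k1 enhancer 9, at chr13:112595721-112596066, where PU.1 was 1.73 in LSK, 7.59 in wild type preGM, 6.56 in GMP and 1.30 in KO preGM. PU.1 in KO preGM was thus as low as in LSK at this enhancer. Though it was classed as bound by both factors, its CEBPA signal in preGM was 0.473, under the median of all enhancers (0.534). With the same wild type preGM value in both ratios, this enhancer also had the highest PU.1 ratio of preGM to LSK among the member enhancers. Of the gene means, 1 of 42 was 2-fold higher in that step, Mapk8ip1 with 2.70 in preGM and 1.02 in LSK, against 2.79% of all genes, and none was lower, against 0.0%. Relative to the median gene none was higher, against 0.495%. No member differed 2-fold in PU.1 between GMP and preGM, with 0.317% of all genes higher and 0.366% lower.

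Mapkapk2 and Mapkapk3, the members with the lowest KO expression ratios, had their enhancers within chr1:132956773-133007218 and chr9:107166298-107192445. At Mapkapk2 enhancer 9, at chr1:132980803-132980918, CEBPA was 4.96 in preGM, and PU.1 was 5.02 in wild type and 1.70 in KO. Enhancer 8 beside it had the highest H3K27ac ratio of GMP to preGM among member enhancers, 7.63 against 1.47, and 9 of the 25 were at least 2-fold higher in that step, as were 9.21% of all enhancers. The strongest H3K27ac of the locus lay at enhancers 22 and 23, where KO preGM had 14.7 and 19.8 against 10.9 and 11.9 in wild type; enhancer 12 had the lowest KO ratio in H3K27ac of all member enhancers, 0.163 against 1.33. Acetylation in KO was thus higher at some enhancers of the gene and lower at others, and the gene mean was 2.13 against 2.07. At Mapkapk3 enhancer 8, at chr9:107183415-107183524, CEBPA was 7.57 and PU.1 was 9.72 in wild type and 2.78 in KO, with H3K27ac of 1.20 and 1.67. A second CEBPA signal of 4.98 lay at enhancer 1, at chr9:107166298-107166538.

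**Figure D4:**
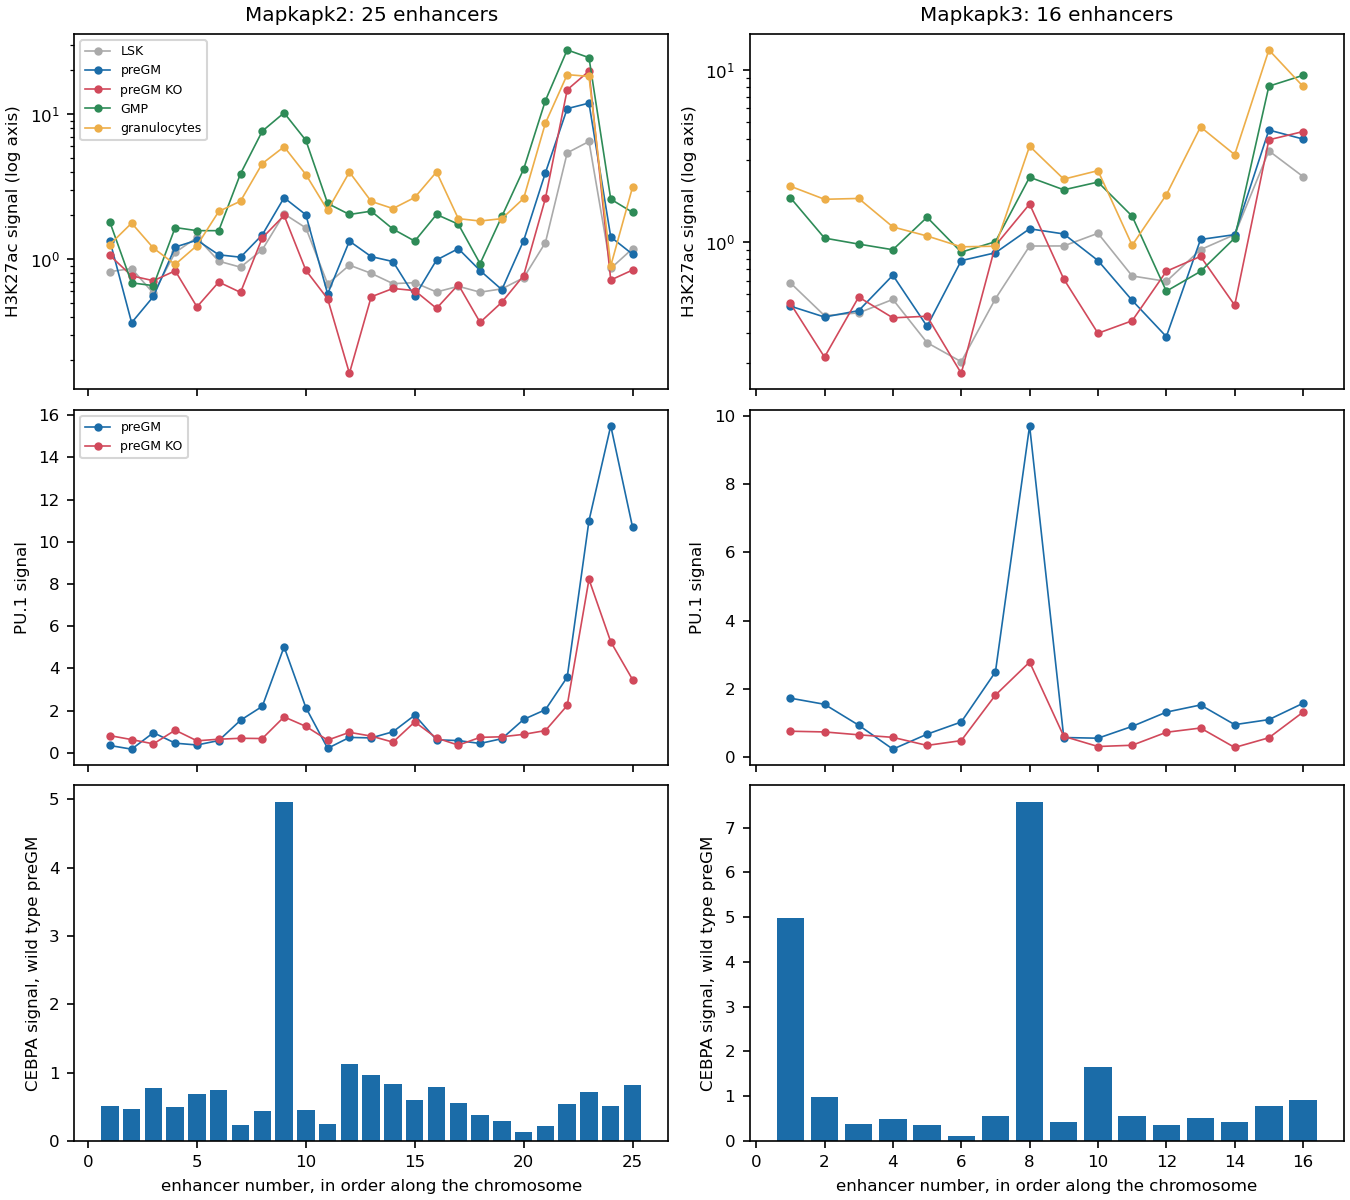
Signal at each Mapkapk2 (left) and Mapkapk3 (right) enhancer, numbered along the chromosome: H3K27ac in 5 groups (top, log axis), PU.1 in wild type and KO preGM (middle) and CEBPA in wild type preGM (bottom), in the authors' units, 1 pooled value per point; lines only join neighbours. CEBPA peaks at Mapkapk2 enhancer 9 and Mapkapk3 enhancers 1 and 8, and PU.1 at Mapkapk3 enhancer 8 is 9.72 in wild type and 2.78 in KO.

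The promoters of the 4 members with the lowest KO expression ratios are shown because CEBPA was the deleted factor and PU.1 the measured partner. Each line is the 250 bases before the gene's start from RefSeq (GRCm38.p6, 5′ to 3′ on the gene's strand), in lower case with matches to the PU.1 letters AGGAAG and the C/EBP letters TTNCNNAA, on either strand, in capitals. The windows lie at chr9:107289878-107290127 (minus strand) for Mapkapk3, chr1:131097844-131098093 (minus) for Mapkapk2, chr10:19934276-19934525 (plus) for Map3k5 and chr13:111808994-111809243 (minus) for Map3k1, and these positions cannot be set against the mm9 positions of the enhancers.
Mapkapk3: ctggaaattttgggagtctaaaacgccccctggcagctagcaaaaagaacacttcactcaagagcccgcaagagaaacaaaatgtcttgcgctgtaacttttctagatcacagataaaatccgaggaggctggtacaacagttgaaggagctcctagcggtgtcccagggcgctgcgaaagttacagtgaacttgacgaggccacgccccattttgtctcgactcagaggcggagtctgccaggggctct
Mapkapk2: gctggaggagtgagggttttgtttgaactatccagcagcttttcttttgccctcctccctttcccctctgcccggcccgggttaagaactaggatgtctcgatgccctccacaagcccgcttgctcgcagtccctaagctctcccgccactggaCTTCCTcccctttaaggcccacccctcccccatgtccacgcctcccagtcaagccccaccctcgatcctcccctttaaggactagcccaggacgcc
Map3k5: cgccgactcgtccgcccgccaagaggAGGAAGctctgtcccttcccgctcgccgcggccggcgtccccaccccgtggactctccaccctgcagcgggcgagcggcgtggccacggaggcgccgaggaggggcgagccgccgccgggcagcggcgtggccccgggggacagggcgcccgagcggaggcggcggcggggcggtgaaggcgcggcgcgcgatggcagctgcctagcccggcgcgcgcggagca
Map3k1: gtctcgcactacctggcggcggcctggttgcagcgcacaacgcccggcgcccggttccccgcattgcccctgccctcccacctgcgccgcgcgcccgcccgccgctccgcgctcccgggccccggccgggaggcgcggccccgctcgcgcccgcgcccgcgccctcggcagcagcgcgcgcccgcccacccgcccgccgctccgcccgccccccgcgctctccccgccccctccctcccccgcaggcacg

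None of the 4 windows held a C/EBP match, and Mapkapk2 and Map3k5 held 1 PU.1 match each; Mapkapk3 has 2 starts in the RefSeq table, of which the first is shown, and the window of the other held a PU.1 match. GC content was 51.6% at Mapkapk3, 60.4% at Mapkapk2, 80.8% at Map3k5 and 85.2% at Map3k1. Of the 42 members, 35 had a promoter in the table, with 46 windows in all: 13 held the C/EBP letters (28.3%, against 36.8% of 32851 windows) and 15 the PU.1 letters (32.6%, against 29.5%). A match of letters is not a binding site.

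Genes around the cascade were counted in 3 lists: upstream activators and adaptors (21 of 29 in the table), inhibitors (22 of 24) and downstream targets (26 of 30). In granulocytes against GMP, expression of 7 of the 21 upstream genes was at least 2-fold higher and of none lower, against 10.6% and 17.5% of all genes. Among them were Rac2, a GTPase of the neutrophil oxidase, with 7292 against 332 and Gadd45a, which activates MAP3K, with 693 against 32.2. Of the 22 inhibitors, 3 were higher and 4 lower, against the same shares: Dusp1, a phosphatase of MAPK, had 2982 against 175, and Spred1, an inhibitor of Ras signalling, 61.2 against 758. H3K27ac at Spred1 was 1.34 against 7.79, and 5 of the 22 inhibitors were lower in that mark and 1 was higher, against 7.57% and 7.81% of all genes. Of the 26 targets, 9 were higher and 3 lower in expression, against 10.6% and 17.5%.

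Between LSK and preGM, 8 of 26 targets were at least 2-fold lower in expression in preGM and 1 was higher, against 0.703% and 1.31% of all genes. Expression of Fos, an immediate early gene of the ERK branch, was 9706 in LSK, 110.1 in preGM, 2291 in GMP and 1934 in granulocytes. Egr1, of the same kind, had 2589, 50, 32 and 120.2, and Zfp36, whose protein is a substrate of Mapkapk2, had 1279, 55, 35.2 and 1197. Fos, Egr1 and Zfp36 were thus high in LSK and low in preGM; in granulocytes Zfp36 came back near its LSK value and Egr1 did not. Dusp1, itself an immediate early gene, had 2459, 102, 175 and 2982. No target differed 2-fold in H3K27ac between LSK and preGM, where only 0.456% of all genes were higher and 0.188% lower. None did in expression between KO and wild type preGM, where 0.218% of all genes were higher and 0.347% lower.

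**Figure D5:**
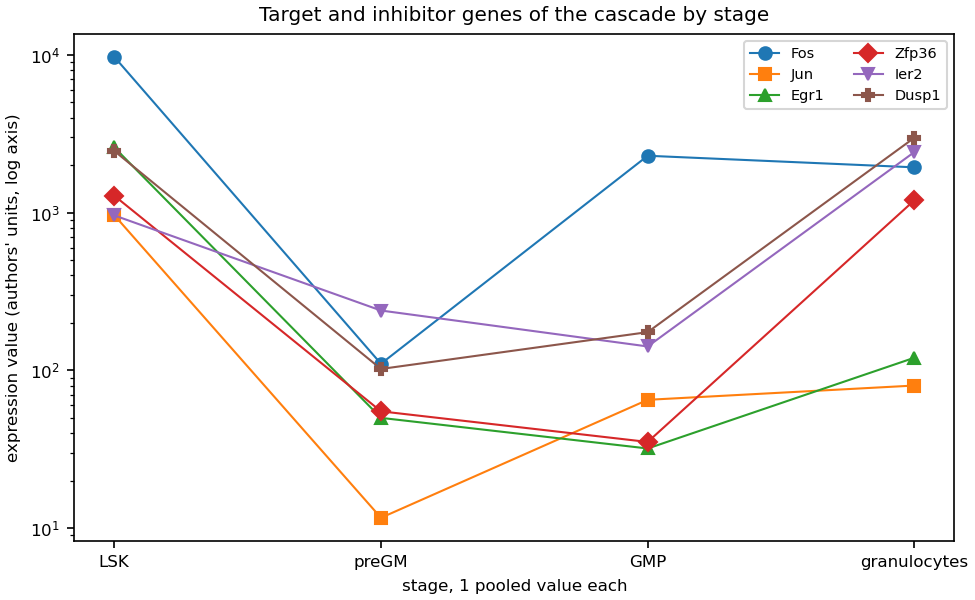
Expression (authors' units, log axis) of 5 cascade targets and the inhibitor Dusp1 at the 4 wild type stages, 1 pooled value per point; lines only join the stages. The 6 drawn are all among the genes at least 2-fold lower in preGM than in LSK. Fosl2, the 1 target at least 2-fold higher in preGM (241 against 83.7), is not drawn. Zfp36, Ier2 and Dusp1 are high again in granulocytes (1197, 2419.9 and 2982).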

How the data were processed

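The deposited table gives each enhancer's position in mm9, assigned gene, stage and factor classes, and signal values per group. Per the submitters' processing notes, the authors used Bowtie2, MACS2 and bedtools on the ChIP libraries. Per the same submitters' processing notes, the authors used STAR, featureCounts and DESeq2 on the RNA libraries. How the authors pooled and scaled libraries into the deposited signal was not stated, and depth is unknown. Per the labels' protocols, ChIP DNA was mixed with E. coli DNA before amplification, in amounts that varied with yield. The 15 ChIP columns used (30 libraries) and 6 expression columns were matched to groups by name; that the expression columns came from the listed RNA libraries (3 per group) is not stated. Another 11 value columns were not used: 6 of an undescribed quantity and 5 with no listed sample.

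Gene values are means over enhancers. Pseudocounts were the 25th percentile of each assay rounded to 1 significant digit: 0.7 for H3K27ac, 2 for H3K4me1, 0.6 for PU.1 and 60 for expression. Ratios were computed with pandas 2.3.3 and NumPy 2.4.6 in Python 3.11.15 and tested on simulated data. Values are given for members 2-fold different in a ChIP comparison, the 3 highest and 3 lowest per comparison, and a set of central kinases. The values of 1 member are not reported here; it is counted in all totals and left out of the figures. The members, lists and rules were chosen with earlier results of these data known. Alternatives varied the pseudocount, centring, enhancers averaged and a filter on low values.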

Additional observations from a re-analysis of the deposited data

How the results depend on the processing

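Each count of 2-fold members and the CEBPA level were recomputed under up to 6 other settings; 20 of these 31 values are counts of 0 in the main setting, where most alternatives also give 0. Of the 54 alternatives to the other 11, 31 stayed within 1.5 times, and none of the single-gene ratios changed sign. Percentages in brackets are the shares of all genes under the same setting. With the pseudocount divided by 4, H3K27ac gave 1 lower in preGM against LSK (2.34%). It also gave 8 higher and 3 lower in granulocytes against GMP (13.2% and 11.9%). H3K4me1 gave 6 higher and 1 lower in that step (13.7% and 8.26%). PU.1 gave 3 higher in preGM against LSK (6.73%). Expression gave 2 higher in preGM against LSK (2.37%). It also gave 1 lower in KO, where the share under this setting is not given and that in the main setting was 0.347%. With 4 times the pseudocount, H3K27ac gave 2 higher in GMP against preGM (1.26%). It also gave 1 higher and 0 lower in granulocytes against GMP (1.56% and 2.15%), where H3K4me1 gave 0 higher (0.0198%). PU.1 gave 0 higher in preGM against LSK (0.376%) and 1 lower in KO (0.466%). Expression gave 0 lower in GMP against preGM (0.882%), and 2 higher and 3 lower in granulocytes against GMP (6.35% and 10.2%). Relative to the median gene, H3K27ac gave 0 higher and 1 lower in GMP against preGM (1.07% and 1.69%). H3K4me1 gave 0 higher and 1 lower in granulocytes against GMP (0.872% and 8.05%). PU.1 gave 0 higher in preGM against LSK (0.495%) and 1 lower in KO (0.386%). With the strongest enhancer in place of the mean, H3K27ac gave 9 higher and 4 lower in granulocytes against GMP (11.6% and 12.4%). PU.1 gave 8 higher in preGM against LSK (9.8%) and 7 lower in KO (11.1%) under that setting. Without the strongest enhancer, H3K27ac gave 2 lower in granulocytes against GMP (6.37%). A larger pseudocount shrinks ratios of low values by construction; for the other settings the cause was not tested. Of 166 single-gene values over 34 pairs of gene and comparison, 129 stayed past 2-fold and 37 fell under it. No paired analysis was possible because each column pools the replicates of its group, and for the same reason no replicate could be left out. The pooled columns and unknown depth leave no measure of error for any difference.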
